A study of Mus musculus with 3 samples.

Results

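Fibrillar collagens form the banded fibrils of connective tissue and of the vessel wall, and procollagen C-proteinase enhancers are secreted proteins that speed the removal of their C-terminal propeptides. The genes described here are 7 chains of the fibrillar collagens I, III, V and XI (Col1a1, Col1a2, Col3a1, Col5a1, Col5a2, Col5a3 and Col11a1) and the enhancers Pcolce and Pcolce2. They were taken by the gene name printed beside each non-control probe, which gave 9 of 19405 named genes and 18 of 41174 probes. Of these 18 probes, 15 lay far enough above background to be tested, and each of the 9 genes had at least 1 of them.

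Cultured aortic endothelial cells from FVB/N Pim1 knockout mice, which lack a serine/threonine kinase, were compared with cells from FVB/N wild-type mice. Both groups were labelled female and 12 weeks of age, no other treatment was named, and RNA was taken 24 hours after seeding on gelatine-coated dishes. Gelatine is itself denatured collagen, and the cells of both groups were grown on it. Each of 3 arrays of 60-base oligonucleotides carried knockout RNA in red (Cy5) and wild-type RNA in green (Cy3), and per the labels these are biological replicates. They did not say whether each culture came from its own mouse, so p-values measure the spread between these 3 arrays, and the number of arrays limits the precision. The dyes were not swapped, so dye and genotype cannot be told apart.

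Some facts of the arrays touch every value below. Values are log2 ratios of knockout over wild type after background correction and normalisation, given with the SD over 3 arrays, and a gene or probe is called where the limma p, adjusted over all 25080 tested probes, is under 0.05. Over the tested probes the ratios of arrays 2 and 3 correlated at r = 0.905, and those of array 1 with the others at 0.681 and 0.699. The sense probe of Pim1 gave -0.97, -1.16 and -0.99 and its mean was -1.04 ± 0.10 (adjusted p = 0.00297); whether it lies in the deleted part of the gene was not settled, so it checks the labels only in part. Although both groups were labelled female, the X-inactivation RNA Xist was at least 168-fold lower in the knockout and the Y-linked Eif2s3y at least 28.1-fold higher, so sex and genotype cannot be told apart. Of 14 endothelial markers listed, 5 were tested, of which Eng and Egfl7 were called as higher in the knockout, while Pecam1, Cdh5, Erg and Tie1 were not well above background in either channel on any of the 3 arrays. Kdr, Esam and Nos3 were tested and not called, and Tek, Vwf, Emcn, Robo4 and Icam2 were also not tested. The endothelial label is thus not borne out by most of the 14 markers. In bulk RNA, fewer cells of a type and less RNA per cell cannot be told apart.

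Fibrillar procollagens are made as long chains that fold into a triple helix, which needs a glycine at each turn of the repeat. The helix is flanked by propeptides that are cut off outside the cell before fibrils assemble. Type I collagen joins pro-alpha1 and pro-alpha2 chains, and type III is made of a single kind of chain and is abundant in arteries. Types V and XI are minor partners that start fibrils and set their width. In the vessel wall these collagens are made mainly by smooth muscle cells and fibroblasts.

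The design of the probes shows these features, and 8 probe sequences are printed because they place a probe in the coding part of its gene or show what members share. In Col5a1 and Col5a3 the capitals mark glycine codons, which recur once in every 3 codons. In Col1a1, Col3a1 and Col11a1 they mark cysteine codons of the open frame, and in Col1a2 the stop codon that ends the chain. The Pcolce2 sequence has no marked part.
Col5a1, chr2:27808732-27811155: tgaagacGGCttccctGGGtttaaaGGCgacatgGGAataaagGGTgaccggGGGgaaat
Col5a3, chr9:20536024-20536753: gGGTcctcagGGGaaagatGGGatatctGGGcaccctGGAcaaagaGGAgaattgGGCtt
Col1a1, amino-terminal side, chr11:94754053-94754112: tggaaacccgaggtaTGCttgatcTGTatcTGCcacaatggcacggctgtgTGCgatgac
Col3a1, amino-terminal side, chr1:45266098-45266157: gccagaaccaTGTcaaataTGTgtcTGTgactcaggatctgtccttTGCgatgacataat
Col1a1, carboxy-terminal side, chr11:94766828-94766887: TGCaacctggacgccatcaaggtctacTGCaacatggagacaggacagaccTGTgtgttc
Col11a1, amino-terminal side, chr3:114082172-114082231: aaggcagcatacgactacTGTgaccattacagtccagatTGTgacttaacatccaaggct
Col1a2, end of the coding part, within chr6:4490619-4490678: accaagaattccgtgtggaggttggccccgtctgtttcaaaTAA
Pcolce2, chr9:95504369-95504428: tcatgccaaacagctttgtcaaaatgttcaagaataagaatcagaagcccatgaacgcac
Positions are those of the array's own annotation, mouse build mm8. The genes lie on the plus strand except Col5a3. The Col5a1 and Col5a3 probes span 2424 and 730 bases of the genome for 60 bases of sequence, so both cross a splice junction. The Col5a1 stretch holds 6 glycine codons in that rhythm and the Col5a3 stretch 7. The amino-terminal probes of Col1a1 and Col3a1 each hold 4 cysteine codons with the same spacing (steps of 3, 2 and 7 codons), although their letters differ.

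Of the 9 genes, 3 were higher in the knockout (Col3a1, Col5a1 and Col1a1), 3 were lower (Col11a1, Pcolce2 and Col1a2) and 3 were not called (Col5a2, Col5a3 and Pcolce). The background was high: 20.2% of the 13261 genes tested were called, 8.71% as higher and 11.5% as lower, against 33.3% of these 9 in each direction. Col3a1, Col11a1 and Pcolce2, 3 of the 9, were called with a change of at least 2-fold, against 6.73% of all genes. Of all called genes 43.0% were higher, and 55.4% with median centring in place of loess. The ratio had the same sign on all 3 arrays for 6 of the 9 genes, as it had for 54.2% of all genes tested. The median of the 9 log2 ratios was 0.01 and that of all genes -0.02. The median of the 9 depended on the scale: it was 0.41 with median centring (3 higher and 2 lower, all genes 0.08) and 0.28 with the scanner software's own ratio (2 higher and 3 lower). Of the 15 tested probes 10 were called, against 17.1% of all probes, and several of them are probes of the same gene. The 9 genes were chosen with earlier results of these data known, so these shares are descriptions only.

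**Figure D1:**
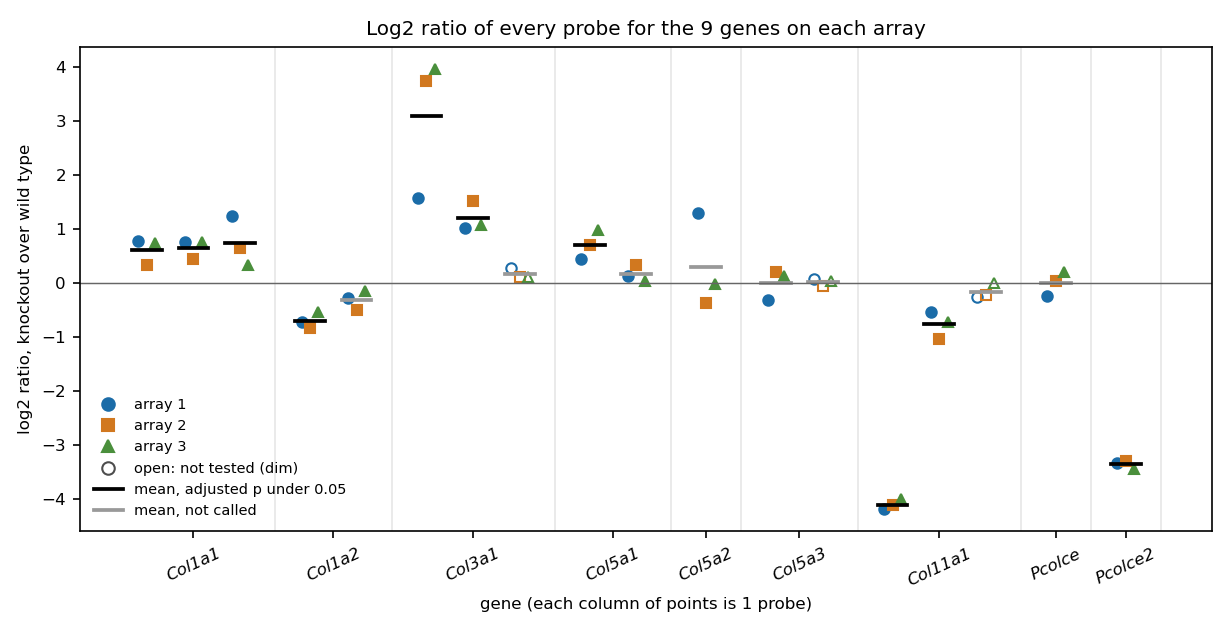
Log2 ratio of knockout over wild type (y axis) for each of the 18 probes of the 9 genes, with 1 point per array and a bar at the mean of 3 arrays; black bars mark probes called at an adjusted p under 0.05 and open points mark probes too dim to test. Col11a1 and Pcolce2 reach means of -4.10 and -3.35 with tight points, Col3a1 reaches 3.09 with array 1 below the others, and the points of Col5a2 lie on both sides of 0.

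Type III collagen had the largest rise of the set. The brightest Col3a1 probe (chr1:45293290-45293349) read 1.58, 3.74 and 3.96 on arrays 1, 2 and 3, a mean of 3.09 ± 1.32 (8.53-fold higher, adjusted p = 0.013). All 3 arrays were high, array 1 by much less than the others. Both channels contributed to that gap: the normalised log2 level of the knockout was 13.82, 14.63 and 14.97, and that of the wild type 12.24, 10.90 and 11.01. The lowest knockout level lay above the highest wild-type level. The second probe, on the amino-terminal side, read 1.02, 1.52 and 1.08, a mean of 1.21 ± 0.27 (adjusted p = 0.00458), and its wild-type signal was well above background on 2 of 3 arrays. The remaining probe, made from a clone sequence, was not well above background and was not tested. The mean of the tested probes was 2.15. With the scanner software's own ratio the brightest probe read 3.13 and the amino-terminal probe 3.11, so the gap between them depended on the processing.

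The call of the brightest Col3a1 probe was lost when replicate 2 or replicate 3 was left out, with the ratio still large. Without replicate 1 the ratio was 3.85 (adjusted p = 2.58e-21), without replicate 2 it was 2.77 (0.0977) and without replicate 3 it was 2.66 (0.0907). Without replicate 1 the fit leaned more on the variance of all probes, with 27.4 prior degrees of freedom against 3.45 and 3.34. These adjusted p-values are therefore not on one scale. The amino-terminal probe was 1.05 without replicate 2, still called (0.0376), and 1.27 without replicate 3 (0.0501). Genes with the most similar ratios, by Euclidean distance over the 3 arrays, included the metallothionein Mt2 (0.816) and the fibril-binding proteoglycan Dcn (1.14). These distances are larger than those of the other 5 called genes, each of which had its nearest gene within 0.144.

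The chains of type I collagen parted. Col1a1, the pro-alpha1 chain, read 0.79, 0.33 and 0.73 on its brightest probe (chr11:94767851-94767910), a mean of 0.62 ± 0.25 (1.53-fold higher, adjusted p = 0.0288). All 3 arrays were above 0, with array 2 lowest. That probe is printed 10 times on each array, and its spots spread from 0.74 to 0.82 on array 1, from 0.29 to 0.38 on array 2 and from 0.70 to 0.80 on array 3. The spots of arrays 1 and 3 overlap, and those of array 2 lie apart. The other Col1a1 probes gave means of 0.66 ± 0.18 (adjusted p = 0.017) at the carboxy-terminal side and 0.74 ± 0.46 (0.0499) at the amino-terminal side, and all 9 readings of the 3 probes were above 0.

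Col1a2, the pro-alpha2 chain, read -0.73, -0.84 and -0.53 on the probe that holds its stop codon, a mean of -0.70 ± 0.15 (1.62-fold lower, adjusted p = 0.0125). All 3 arrays were below 0. A dim probe made from a clone sequence read -0.28, -0.51 and -0.14, a mean of -0.31 ± 0.19 that was not called (0.123). The brightest probes of Col1a1, Col1a2 and Pcolce were read from the scanner's lower-gain scan in both channels on all 3 arrays, as were the knockout spots of the Col3a1 probe on 2 arrays, and none was saturated.

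Set against each other on the same array, Col1a1 exceeded Col1a2 by 1.51, 1.17 and 1.27 log2 units, a mean difference of ratios of 1.32 ± 0.18. The order was the same on 3 of 3 arrays. An exact sign-flip test (two-sided) gave p = 0.25, the smallest value that 3 arrays allow. The split between the chains was 1.28 with median centring and 1.35 with the scanner software's own ratio, but the calls of the single chains depended on the scale. With median centring Col1a1 was 0.99 (adjusted p = 0.0207) and Col1a2 was -0.29 (0.329), and with the software's ratio Col1a1 was 0.57 (0.0883).

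Neither call of a type I chain held when replicate 2 or replicate 3 was left out. For Col1a1 the adjusted p was then 0.0734 and 0.188, and for Col1a2 it was 0.113 and 0.0754, with the signs kept. The ratios most similar to those of Col1a1 were of Trpc2 (distance 0.119), Eno1 and Ccp110 (0.121 each). Those most similar to Col1a2 were of the metalloproteinase Adam9 (0.0536), the kinase Wnk1 (0.062) and Leng1 (0.0638).

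**Figure D2:**
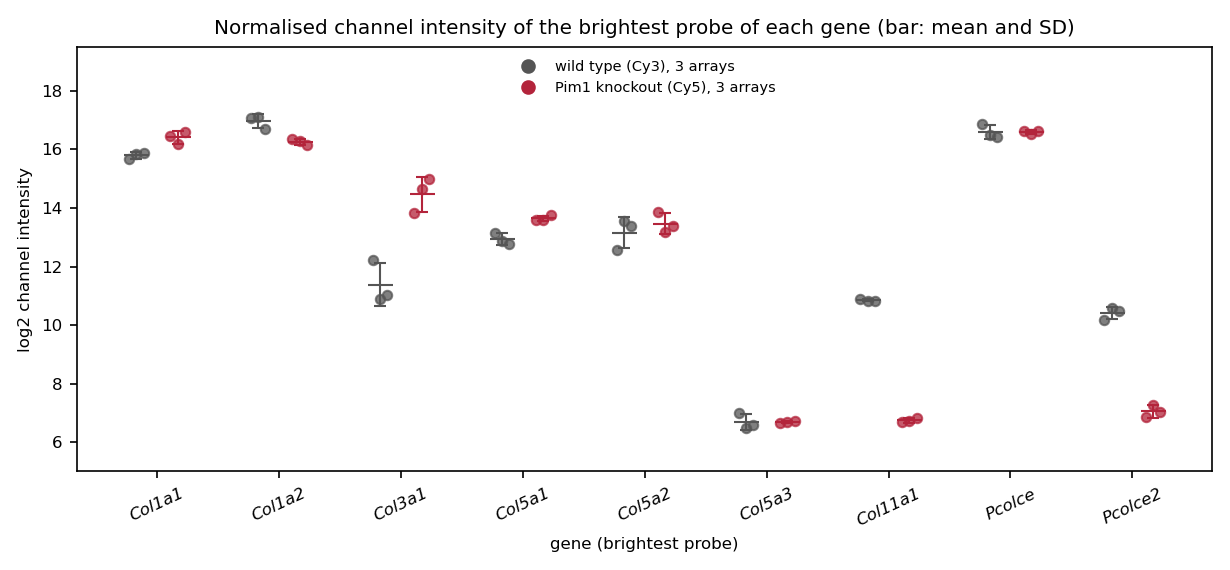
Normalised log2 channel level (y axis) of the brightest tested probe of each of the 9 genes, with 3 knockout points (red) and 3 wild-type points (grey); levels are comparable between the channels of a probe and not between genes. Knockout points of Col3a1 lie above and those of Col11a1 and Pcolce2 below all wild-type points, and those of Col5a2, Col5a3 and Pcolce overlap them.

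Of the type V chains, Col5a1 alone was called. It read 0.44, 0.70 and 0.98 (chr2:27859381-27859440), a mean of 0.71 ± 0.27 (1.63-fold higher, adjusted p = 0.0223), and all 3 arrays were above 0. The probe over the triple helix printed above, which was dim, read 0.13, 0.34 and 0.04, a mean of 0.17 ± 0.15 that was not called (0.333). Without replicate 2 or replicate 3 the adjusted p of the bright probe was 0.144 and 0.147. The most similar ratios were of Fstl1 (distance 0.0866), a secreted glycoprotein, Tnfrsf25 (0.0881) and Ube4b (0.122).

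Col5a2, the partner chain of Col5a1 in most type V collagen, read 1.30, -0.38 and -0.01 (chr1:45321322-45321381, minus strand), a mean of 0.30 ± 0.88 that was not called (adjusted p = 0.577). Array 1 was high and the others were at or below 0. Its wild-type level was 12.56 on array 1 against 13.55 and 13.38 on the others, and its knockout level 13.86 against 13.18 and 13.37. Without replicate 1 the ratio was -0.19 (0.225). Col5a1 minus Col5a2 was -0.86, 1.07 and 0.99 (exact sign-flip p = 0.5, smallest possible 0.25), so the order of the chains was not the same on all arrays.

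The probes of Col3a1 and Col5a2 lie close together on chromosome 1, on opposite strands. On array 1 Col3a1 had its lowest ratio and Col5a2 its highest.

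Col5a3, a chain found in some type V collagen, was dim. Its tested probe read -0.32, 0.20 and 0.14 (chr9:20520550-20520609), a mean of 0.01 ± 0.28 (adjusted p = 0.984). The triple-helix probe printed above was not well above background and was not tested. Signal over background, and not the spread alone, limits what can be said of this gene.

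Type XI collagen gave the largest fall. Col11a1 read -4.19, -4.11 and -4.00 on its brightest probe (chr3:114211239-114211297), a mean of -4.10 ± 0.10 (17.1-fold lower, adjusted p = 0.000129). The spread over arrays was small beside the change. Before any correction, its wild-type spots measured 1570, 1895 and 1295 intensity units, and its knockout spots 107, 115 and 103, which were still well above background on all 3 arrays. The amino-terminal probe printed above read -0.54, -1.03 and -0.72, a mean of -0.76 ± 0.25 (0.0163), and its knockout signal was well above background on 1 array. The probes share a sign and differ in size. With an offset of 0 in background correction they read -4.88 and -1.43, and why they differ was not tested. The third probe was too dim to test.

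The size of the Col11a1 change moved with the processing. It was -5.48 with the software's own ratio, where it was still called, and -2.43 as the mean of its tested probes, a value without a test. Without each replicate in turn the brightest probe stayed called, with adjusted p-values up to 0.00833, while the amino-terminal probe was not called without replicate 2 (0.113) or replicate 3 (0.117). The most similar ratios were of the protease inhibitor Serpine2 (distance 0.144), the annexin Anxa10 (0.386) and the glutathione transferase Gsta1 (0.421).

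The enhancers also parted. Pcolce2 read -3.33, -3.30 and -3.43 on its only probe, a mean of -3.35 ± 0.07 (10.2-fold lower, adjusted p = 0.000189). Its normalised log2 level was 10.41 ± 0.21 in the wild type and 7.05 ± 0.22 in the knockout, and the groups were far apart. It was called without each replicate in turn, with adjusted p-values up to 0.00864, and read -4.32 with the software's ratio. The most similar ratios were of the water channel Aqp1 (distance 0.0945), the ligand Wnt10a (0.262) and the cadherin Cdh13 (0.31).

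Pcolce, which encodes the first enhancer described, read -0.23, 0.04 and 0.20 on its only probe (chr5:137834939-137834998), a mean of 0.00 ± 0.22 (adjusted p = 0.995). The arrays lay on both sides of 0. With median centring it was 0.41 (0.159), still not called. Pcolce exceeded Pcolce2 by a mean difference of ratios of 3.36 ± 0.27, in the same order on 3 of 3 arrays (exact sign-flip p = 0.25, the smallest possible).

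**Figure D3:**
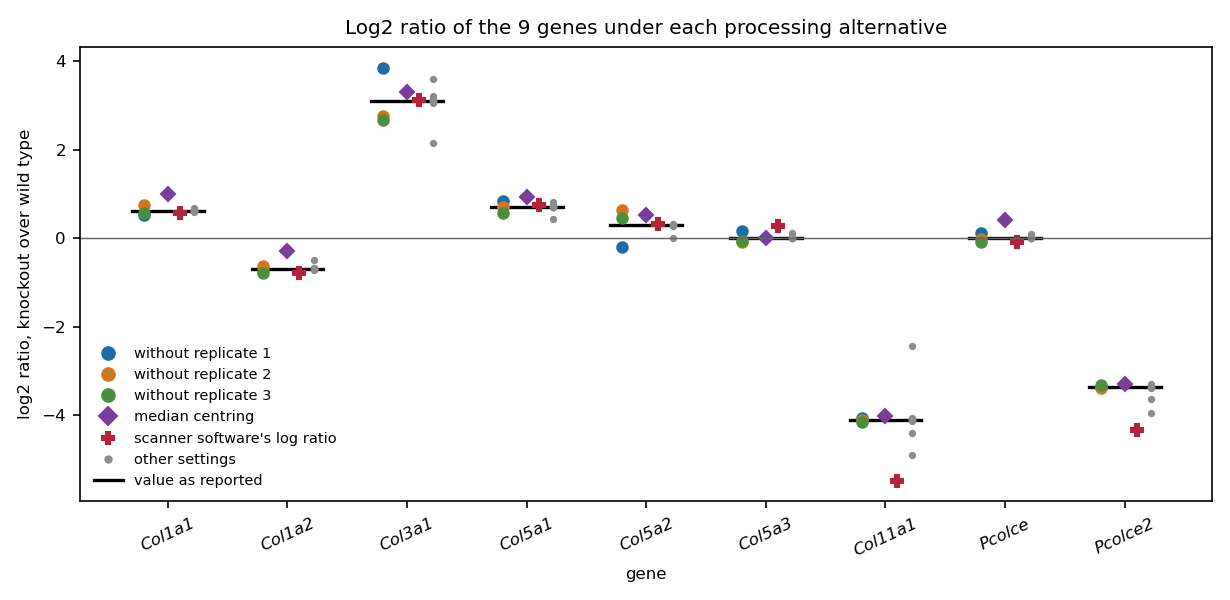
Log2 ratio of knockout over wild type (y axis) of the 9 genes under each processing alternative, with a black bar at the reported value, coloured points without each replicate, a diamond for median centring, a cross for the scanner software's ratio and small grey points for other settings. Col11a1 spreads from -5.48 to -2.43 and stays below 0, Col1a2 moves from -0.70 to -0.29 with median centring, and Col5a2 falls to -0.19 without replicate 1.

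Promoter sequence was available in the RefSeq table (GRCm38.p6, a later build than the probe positions) for 7 of the 9 genes. Col1a1 and Col5a2 are not among them. The 250 bases before the start are printed for Col1a2, Col3a1 and Pcolce2, whose listed start is the start of the gene and whose ratios went different ways; capitals mark CCAAT and TATAAA.
Col1a2, chr6:4505368-4505617, plus strand: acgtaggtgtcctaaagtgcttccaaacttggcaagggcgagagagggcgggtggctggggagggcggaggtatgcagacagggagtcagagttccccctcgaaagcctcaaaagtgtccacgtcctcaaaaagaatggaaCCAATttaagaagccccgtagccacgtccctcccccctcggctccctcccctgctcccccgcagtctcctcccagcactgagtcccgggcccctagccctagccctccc
Col3a1, chr1:45311288-45311537, plus strand: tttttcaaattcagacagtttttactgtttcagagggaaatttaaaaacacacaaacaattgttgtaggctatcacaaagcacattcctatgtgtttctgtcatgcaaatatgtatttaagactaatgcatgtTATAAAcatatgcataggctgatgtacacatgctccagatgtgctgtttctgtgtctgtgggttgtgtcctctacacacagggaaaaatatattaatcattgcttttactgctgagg
Pcolce2, chr9:95637378-95637627, plus strand: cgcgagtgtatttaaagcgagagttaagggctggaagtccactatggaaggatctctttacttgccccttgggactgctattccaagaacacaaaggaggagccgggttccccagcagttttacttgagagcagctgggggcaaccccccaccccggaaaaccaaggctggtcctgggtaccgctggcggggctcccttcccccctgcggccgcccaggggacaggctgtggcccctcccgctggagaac
Short motifs were searched on both strands: CCAAT, the GC box GGGCGG and TATAAA, which do not overlap in these windows. The Col1a2 window holds CCAAT 109 bases before the start and 2 GC boxes, the nearer at 188 bases. The Col3a1 window holds TATAAA at 117 bases and neither of the others. The Pcolce2 window holds 1 GC box, on the reverse strand, at 40 bases. Their G and C content was 62.0%, 35.2% and 61.2%. Of 32851 promoter windows of the same length in the table, 33.8% hold CCAAT, 32.7% the GC box and 12.4% TATAAA. These matches are descriptions of letters and not binding sites.

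The genes around the collagens were taken from lists of 108 genes in 8 roles, of which 92 were tested, 26 called as higher and 15 as lower. The lists share the background shares given above. Leaving out replicate 1, 2 or 3 kept 41, 18 and 14 of these 41 calls with their sign. The number of all genes called went from 2685 to 5538, 659 and 625 in the same fits, so the loss of calls was array-wide. Of the other fibrillar chains, 3 of 4 were tested and the cartilage chain Col2a1 was lower (-0.55 ± 0.22, adjusted p = 0.0339), while Col24a1 was at background. The Col2a1 call was lost without replicate 2 or 3, with median centring and with the software's ratio.

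Procollagen modification and folding held 21 tested genes, of which 7 were higher and 1 was lower, against 8.71% and 11.5% of all genes. The median was 0.23, and it was 0.39 with median centring and 0.14 without replicate 2. Plod2, which hydroxylates lysines of the telopeptides, rose by 1.65 ± 0.21 (adjusted p = 0.0012). Serpinh1, the collagen chaperone HSP47, rose by 1.22 ± 0.27 (0.00449) and the prolyl 3-hydroxylase P3h1 by 0.86 ± 0.20 (0.00826). P3h2, of the same enzyme family, was at least 1.938-fold lower (0.0062), since its knockout signal was not well above background. Plod2 was called without each replicate in turn. Without replicate 2, P3h1 (0.0825) and P3h2 (0.0675) were not called, and without replicate 3, P3h1 (0.0889) and Serpinh1 (0.0584) were not. The list held 9 higher and 2 lower without replicate 1, 2 and 0 without replicate 2, and 1 and 1 without replicate 3.

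Of the proteinases that remove propeptides, 5 of 8 were tested. Bmp1, a C-proteinase whose removal of propeptides the enhancers speed, rose by 0.52 ± 0.12 (adjusted p = 0.0244). It was not called without replicate 2 (0.18) or 3 (0.152). The list's median was -0.02. Tll2 and Mep1b were at background.

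The lysyl oxidases, which start the cross-links between collagen molecules, were all called and divided. Lox (1.41 ± 0.54, adjusted p = 0.0122) and Loxl1 (1.69 ± 0.17, 0.000899) rose. Loxl2 (-1.24 ± 0.09, 0.0016), Loxl3 (-0.89 ± 0.07, 0.00417) and Loxl4 (-1.81 ± 0.20, 0.000817) fell. The counts of 2 and 3 were the same with median centring and with the software's ratio. Lox was not called without replicate 3 (0.094), nor Loxl3 without replicate 2 (0.0574) or 3 (0.0533).

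**Figure D4:**
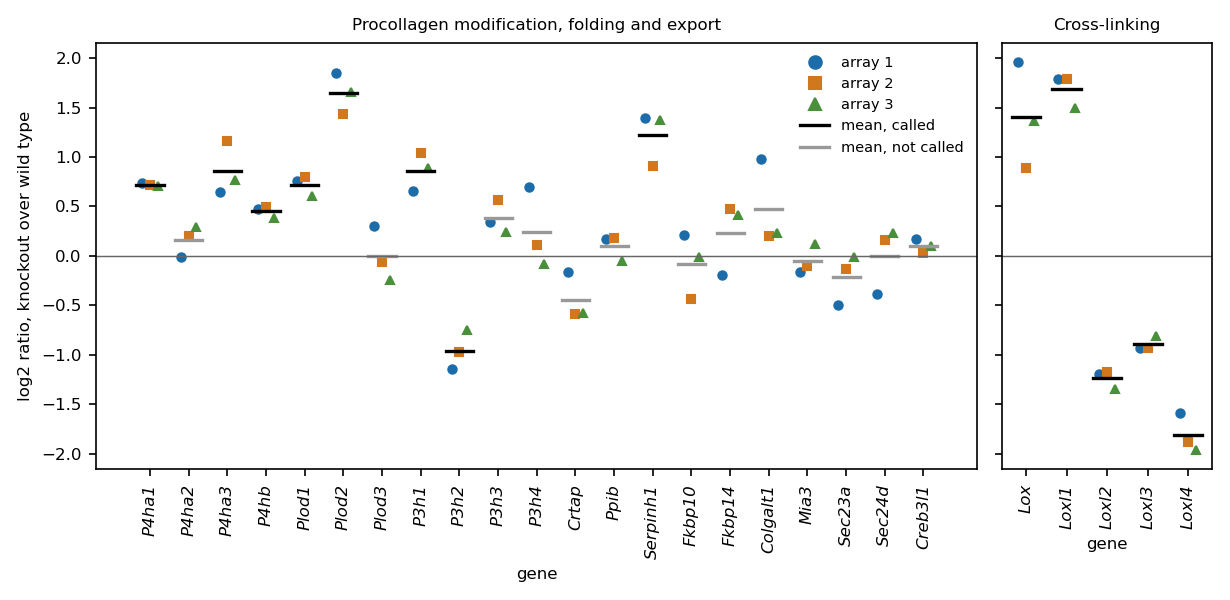
Log2 ratio of knockout over wild type (y axis) on each of 3 arrays for the 21 tested genes of procollagen modification, folding and export and the 5 lysyl oxidases, with a bar at the mean (black where called, grey where not). Plod2 and Serpinh1 lie highest at means of 1.65 and 1.22 in the left panel, and in the right panel Lox and Loxl1 lie above 0 on every array and Loxl2, Loxl3 and Loxl4 below 0.

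Among 19 tested proteins that bind or lie on fibrils, 7 were higher and 1 lower, with a median of 0.32 that was 0.63 with median centring and 0.56 without replicate 1. The proteoglycan Dcn, which binds and spaces fibrils, rose by 2.70 ± 0.96 (adjusted p = 0.0079) and Dpt, a small matrix protein that binds Dcn, by 1.85 ± 0.18 (0.000727). The related proteoglycan Lum rose by 2.27 ± 0.85 (0.00948), with wild-type signal well above background on 1 array. Tnxb, a tenascin of the matrix, fell by 1.27 ± 0.31 (0.00483). Without replicate 3, Dcn (0.0747), Lum (0.0752) and Tnxb (0.0552) were not called and the list held 2 higher and 0 lower. Without replicate 1 it held 11 and 1.

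Of 8 tested receptors for collagen, 2 were higher and 1 lower, with a median of -0.19 that was -0.02 with median centring or without replicate 1 and -0.36 without replicate 3. Itga11, an integrin chain that binds fibrillar collagen, rose by 2.28 ± 0.20 (adjusted p = 0.000466), and the uptake receptor Mrc2 by 0.79 ± 0.12 (0.00725). Itga2 was at least 1.35-fold lower (0.0489), with knockout signal not well above background, and was not called with median centring. Without replicate 2 or replicate 3, 1 receptor was called, Itga11, as higher.

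Of 9 tested genes of collagen breakdown, 2 were higher and 2 lower, with a median of 0.45 that was 0.23 without replicate 1 and 0.26 without replicate 2. The lysosomal protease Ctsk rose by 2.61 ± 0.36 (adjusted p = 0.00073) and the collagenase Mmp13 by 1.17 ± 0.59 (0.0246). Pepd, which cleaves proline dipeptides, fell by 0.49 ± 0.23 (0.0493), and the inhibitor Timp2 fell by 0.47 ± 0.17 (0.0391). Both falls were lost with median centring, under which 3 genes were higher and 0 lower. Without replicate 2 or replicate 3 only Ctsk of this list was called. Mmp1a, Mmp9 and Fap were at background.

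Among 22 regulators of collagen transcription, 5 were higher and 6 lower, with a median of -0.09 that turned to 0.04 with median centring, under which 4 were higher and 3 lower. The growth factors Tgfb2 (-2.56 ± 0.04, adjusted p = 0.000265) and Tgfb3 (-2.03 ± 0.52, 0.00355) and the receptor chain Tgfbr2 (-1.12 ± 0.22, 0.00415) fell. The tendon transcription factor Mkx (1.86 ± 0.24, 0.001), Cebpb (1.22 ± 0.46, 0.0127) and the Smad repressor Ski (0.56 ± 0.14, 0.0221) rose. Cebpb and Ski were not called without replicate 2 (0.0849 and 0.145) or replicate 3 (0.0578 and 0.169). Without replicate 1 the list held 7 higher and 10 lower, with a median of -0.02, without replicate 2 it held 1 and 3, and without replicate 3 it held 1 and 4.

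Markers of cell types that a culture from aorta could hold moved as well, and their part in the collagen values was not tested. For each marker list the shares over all genes were 8.71% called as higher and 11.5% as lower. Of 12 tested fibroblast markers 6 were higher and 0 lower. Among these 6 were Dcn, Lum and the growth factor receptor Pdgfra (2.26 ± 0.90, adjusted p = 0.0115), and 3 of them also stand in the fibril-associated list. The log2 of the summed levels of all 13 listed, tested or not, was 18.66 to 18.82 in the knockout and 18.52 to 18.62 in the wild type. Such a sum is weighted to the brightest genes. Fap was at background. Of 5 tested endothelial markers, Eng (2.51 ± 0.24, 0.000441) and Egfl7 (1.42 ± 0.23, 0.00217) were higher. The log2 of the sum over all 14 listed was 12.50 to 12.88 in the knockout and 11.09 to 11.37 in the wild type.

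Of 8 tested smooth muscle markers 1 was higher and 3 lower, against 8.71% and 11.5% of all genes. Lmod1 rose by 0.67 ± 0.23 (adjusted p = 0.0209), Cnn1 fell by 1.45 ± 0.40 (0.00574), Mylk fell by 1.24 ± 0.09 (0.00158), and Myocd was at least 2.22-fold lower (0.00699). The log2 of the sum over all 9 listed was 14.89 to 15.14 in the knockout and 14.97 to 15.56 in the wild type, which overlap. Of 9 mesothelial markers 6 were lower and 0 higher, led by Krt19 (-4.12 ± 0.48, 0.000398), Msln (-3.41 ± 0.18, 0.000222) and Gpm6a (at least 5.98-fold lower, 0.00278). The log2 of the sum over these 9 was 13.44 to 13.78 in the knockout and 16.29 to 16.62 in the wild type. Without replicate 3, 1 fibroblast, 2 endothelial, 1 smooth muscle and 3 mesothelial markers were called. Leaving out replicate 1 gave 9 higher and 1 lower fibroblast markers, 1 and 5 of smooth muscle, and 0 and 7 mesothelial. The software's ratio gave 2 higher and 1 lower endothelial markers, and 1 and 6 mesothelial. Median centring gave 7 higher and 0 lower fibroblast markers, and 0 and 5 mesothelial.

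**Figure D5:**
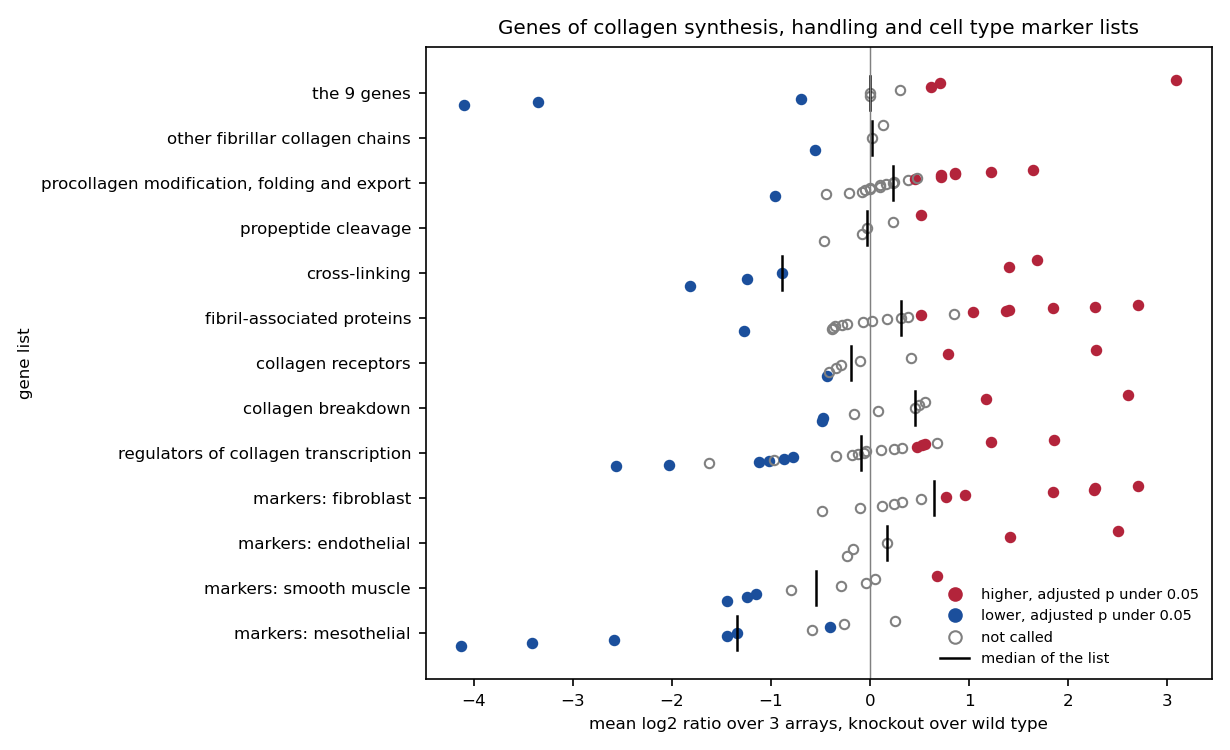
Mean log2 ratio of knockout over wild type (x axis, 3 arrays) of every tested gene in the 9 genes, the 8 lists around them and 4 lists of cell type markers, with red for genes called higher, blue for genes called lower, open grey for genes not called and a black line at each list's median. The lysyl oxidases split into 2 rises and 3 falls, fibroblast markers have a median of 0.64 and mesothelial markers one of -1.35.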

How the data were processed

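RNA of knockout and wild-type cells was measured on 3 arrays. The authors' scanner files come from Agilent Feature Extraction 9.5.3.1, per the submitters' processing notes. Per the file headers, each of 45018 spots has a mean pixel intensity and a local background intensity for red and for green, and a log10 ratio of red over green. The deposited value table holds the same log10 ratio (largest difference 0).

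From the mean intensities, normexp (offset 50) removed background, and loess within each array gave log2 ratios, in which 1639 control spots and flagged spots had no weight. Spots of a probe were averaged. Testing required signal well above background in either channel on 2 or more arrays, and the brightest such probe stands for its gene. In limma 3.58.1 (R 4.3.3) the mean ratio was compared with 0, with Benjamini-Hochberg adjustment. Bounds use channel values after loess and Aquantile. The pipeline was tested on simulated data. Named were all 9 genes, up to 3 called genes per direction and list, markers at background, and the 3 nearest genes of each called member, of which 1 is not reported here. The members and lists were chosen with earlier results of these data known.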

Additional observations from a re-analysis of the deposited data

How the results depend on the processing

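No called value of the 9 genes changed sign under any alternative. With median centring 2724 probes (4300 as reported) were called and 8 of the genes around the collagens were lower (15 as reported), and 55.4% of called genes were higher, against 43.0%. Array weights called 7206 probes and 4377 genes (2685 as reported). At an adjusted p under 0.01, 1375 probes and 949 genes were called, with 0 members higher, 16 genes around them higher (26 as reported) and 8 lower. Leaving out each replicate gave 868 to 9165 probes, 625 to 5538 genes, 0 to 3 members higher, 7 to 38 genes around them higher and 6 to 24 lower. The cause was not tested. The mean of a gene's probes gave values without a test. The reported ratio is taken within each array and so already pairs the RNAs. No paired analysis was possible beyond it because the arrays form 1 group and no other group shares their replicate numbers.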

Other observations

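Some genes of the lists had a ratio on array 1 opposite in sign to those on arrays 2 and 3 and over 1 log2 unit from their mean, a rule chosen after the values were seen. They were 8 of 130 listed genes tested (6.15%), against 426 of all 13261 genes (3.21%). The fibril-associated Col14a1 read -2.02, 0.49 and 0.47, and the small proteoglycans Omd -2.25, 0.65 and 0.47 and Ogn -1.07, 0.80 and 0.78. The metalloproteinase inhibitor Timp1 read 1.75, -0.17 and -0.10. The smooth muscle marker Tagln read 0.63, -1.22 and -1.80 and the propeptide proteinase Tll1 0.52, -1.26 and -0.64. The mesothelial marker Upk1b read 0.31, -1.11 and -0.94, and Col5a2 is the eighth.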
